A study of Mus musculus with 6 samples.

Results

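Gm6768, Gm3375, Gm11868 and Gm9855 are mouse retrocopies, and they were examined beside Ncoa4, Psmb5, Cyb5r4 and Tdg, the parent genes whose transcripts they copy. The 8 genes form 4 pairs, were chosen by symbol, and are 8 of the 54393 genes in the deposited table. The choice used the contrast between genotypes in these same samples, so the levels, sums and shares of the 8 genes below are a description and carry no test.

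Tibialis anterior, a muscle of the lower hind limb, was taken from adult mice of 2 genotypes, and its RNA was sequenced. The wild-type (WT) group held 3 muscles, numbered 1, 3 and 4, and the Dock3 knockout (Dock3 KO) group held 3 muscles, numbered 1, 2 and 3. Dock3 encodes an exchange factor that activates the small GTPase Rac. The WT titles begin with C57, and the labels give neither the strain, the sex nor the design of the knockout allele. No label ties a muscle to an animal, so p-values measure only the spread between these samples. Values are normalized counts, read numbers per gene that the authors had put on a common scale across samples. Every log2 difference is Dock3 KO minus WT on the scale log2(normalized count + 1), which understates changes of low values.

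A retrocopy arises when a messenger RNA is copied back into DNA and inserted at another place in the genome, so it lacks the introns of its parent and usually its promoter. Many retrocopies are annotated as processed pseudogenes, and a short read from an exon shared with the parent can fit both loci. The parents have separate roles. NCOA4 is the cargo receptor that carries ferritin to the lysosome, which releases its iron, and it was first described as a nuclear receptor coactivator. PSMB5 is the beta 5 subunit of the 20S proteasome, which carries its chymotrypsin-like activity. CYB5R4 is a reductase with a cytochrome b5 domain and a cytochrome b5 reductase domain. TDG is a DNA glycosylase that removes thymine and uracil from mismatches with guanine and excises oxidised forms of 5-methylcytosine during active DNA demethylation.

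All 4 retrocopies are annotated as processed pseudogenes with a single transcript, and each carries the spliced exon order of its parent. Gm6768 (ENSMUSG00000021908, chr12:119260978-119262855, plus strand, GRCm38) is 1878 bases long, matches the whole 1878-base coding sequence of Ncoa4-201 and spans 8 of its exon junctions. It differs from the parent at 2 positions, an identity of 99.9%, and holds an unbroken identical run of 1311 bases. Both differences alter a codon, and the reading frame runs without a stop over 625 of 625 codons. These 2 stretches of 41 bases are the only ones in which the sequences of the pair part. Capitals mark the base that differs, at chr12:119262269-119262309 and chr12:119262490-119262530 in Gm6768 and at positions 1338 to 1378 and 1559 to 1599 of Ncoa4-201. Sequences here and below are from the GENCODE M21 transcripts, 5′ to 3′.
Gm6768: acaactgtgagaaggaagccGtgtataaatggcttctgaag
Ncoa4: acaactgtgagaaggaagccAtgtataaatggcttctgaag
Gm6768: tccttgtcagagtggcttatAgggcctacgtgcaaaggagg
Ncoa4: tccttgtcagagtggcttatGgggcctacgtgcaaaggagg

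Gm3375 (ENSMUSG00000107470, chr7:3181093-3181888, plus strand) is 796 bases long and spans both exon junctions of Psmb5-201, with 8 mismatches and 1 extra base, an identity of 98.9%. Read from the start codon of the parent, the first stop comes after 125 of 264 codons. The stretch shown holds the extra base and 2 of the mismatches, in capitals, at chr7:3181351-3181410 in Gm3375 and at positions 290 to 348 of Psmb5-201. The extra base lies in a run of the same base, so its place within the run is arbitrary.
Gm3375: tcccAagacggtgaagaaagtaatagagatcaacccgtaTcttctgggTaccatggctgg
Psmb5: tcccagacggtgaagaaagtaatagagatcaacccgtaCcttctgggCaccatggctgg

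Gm11868 (ENSMUSG00000050550, chr4:18844202-18845679, minus strand) is 1478 bases long, starts past the start codon of Cyb5r4-201 and covers 93.6% of its coding sequence. It spans 14 exon junctions and is the most diverged of the 4 retrocopies, with 23 mismatches and 7 missing bases, an identity of 97.98%. The stretch shown holds the gap of 7 bases, which stand in capitals in the parent with 2 mismatches, at chr4:18845277-18845329 in Gm11868 and at positions 618 to 677 of Cyb5r4-201.
Gm11868: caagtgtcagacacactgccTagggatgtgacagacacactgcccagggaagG
Cyb5r4: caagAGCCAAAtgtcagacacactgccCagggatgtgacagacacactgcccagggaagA

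Gm9855 (ENSMUSG00000085666, chr10:42054113-42055306, minus strand), which RefSeq lists as Tdg-ps2, is 1194 bases long and covers the whole coding sequence of Tdg-201 over 8 exon junctions. It has 9 mismatches, an identity of 99.2%, and its frame runs without a stop over 397 of 397 codons. A search by sequence found 3 more annotated Tdg copies, Tdg-ps (chr15:82516311-82519278, plus strand), Gm5597 (chr7:76244746-76245938, minus strand) and the 213-base AC122846.1. The 90-base stretch shown holds as many differing positions as any of its length, and capitals mark the 5 positions at which a copy differs from Tdg. It covers positions 1002 to 1091 of Tdg-201, chr10:42054377-42054466 of Gm9855, chr15:82517324-82517413 of Tdg-ps and chr7:76245010-76245099 of Gm5597.
Tdg: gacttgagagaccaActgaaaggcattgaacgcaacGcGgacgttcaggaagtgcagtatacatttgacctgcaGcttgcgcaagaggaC
Gm9855: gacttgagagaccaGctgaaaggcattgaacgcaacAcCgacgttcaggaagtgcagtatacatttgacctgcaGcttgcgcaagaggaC
Tdg-ps: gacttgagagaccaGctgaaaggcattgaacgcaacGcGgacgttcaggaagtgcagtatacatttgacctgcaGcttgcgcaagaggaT
Gm5597: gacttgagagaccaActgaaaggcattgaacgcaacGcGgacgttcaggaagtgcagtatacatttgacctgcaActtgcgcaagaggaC

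How much of each gene could be told from all others was measured with words of 31 bases, taken over all annotated transcripts. In Gm6768, 62 of 1848 words (3.35%) occurred in no other gene, and 96.6% were shared with Ncoa4. In Gm9855, 111 of 1164 words (9.54%) occurred nowhere else and 83.4% were shared with Tdg. Gm3375 had 29.4% of its words to itself and Gm11868 42.1%, with 70.0% and 57.9% shared with their parents. Among the parents, 81.2% of the Ncoa4 words, 77.1% of the Cyb5r4 words, 58.2% of the Tdg words and 28.3% of the Psmb5 words occurred in no other gene. The pairs thus order the same way by words as by identity, with Gm6768 the least and Gm11868 the most distinguishable retrocopy. How reads that fit both loci were assigned is not given in the sources used here, so the value of each of the 8 genes is uncertain by the reads it shares.

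**Figure D1:**
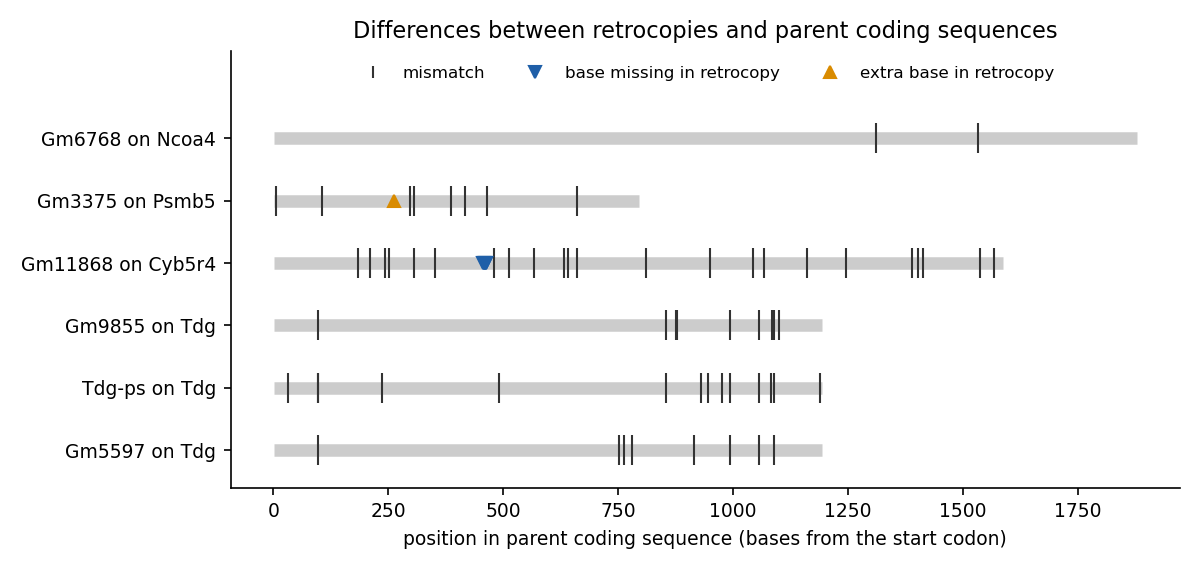
Positions at which 4 retrocopies and 2 further Tdg copies differ from their parents, plotted along the parent coding sequence in bases from the start codon. Grey bars are the parent coding sequences, black ticks mismatches, blue triangles bases missing from the copy and the orange triangle its extra base. Gm6768 has 2 ticks along 1878 bases, Gm11868 has 23 ticks and a gap of 7 bases, and its first mark lies past the start that the copy lacks.

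The whole samples were compared on the 16031 genes whose mean reached 10 normalized counts. Genes were called at a limma adjusted p under 0.05 (Benjamini-Hochberg), which took in 165 of them (1.03%). Dock3 itself stood at 169, 161 and 118 normalized counts in the WT muscles and 22.4, 1.78 and 1.54 in the knockouts numbered 1, 2 and 3 (log2 difference -4.76, limma adjusted p 0.0140). That call was lost in 6 of 15 alternatives, among them without any 1 WT sample (limma adjusted p 0.0691 to 0.0749) and without Dock3 KO replicate 2 (0.0876) or 3 (0.0611). The sum of normalized counts per sample lay between 2.352e+07 and 3.339e+07. Gm42418 and Lars2 together took 17.9% and 20.3% of the sum in Dock3 KO replicates 1 and 2 and 3.00% to 3.64% in the other 4 samples. The most frequent low value, roughly the worth of 1 read, was 1.40 and 1.52 in Dock3 KO replicates 1 and 2 and 0.77 to 0.89 elsewhere. The 8 muscle fibre markers were all measured, none was called, and their summed level ranged from 1.679e+06 to 1.804e+06 in WT and from 1.683e+06 to 1.876e+06 in Dock3 KO. Of the 34 markers of erythrocytes, adipocytes, macrophages, Schwann cells, endothelial cells and fibroblasts, Col1a1 and Col3a1 were called, both higher in Dock3 KO (log2 differences 1.38 and 0.87, limma adjusted p 0.0228 and 0.0168), and both calls were lost without any 1 Dock3 KO sample (limma adjusted p 0.0517 to 0.109) and that of Col3a1 without WT replicate 4 (0.0662). The other 3 fibroblast markers were not called, at -0.48 (Lum), -0.28 (Dcn) and 0.15 (Pdgfra), and the fibroblast sum was 27466 to 29000 in WT and 30381 to 36416 in Dock3 KO. No marker was listed at 0 in every sample, and the part of these differences in the values below was not tested.

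In the Ncoa4 pair the retrocopy was near 0 in Dock3 KO muscles, and the sum of the pair overlapped between genotypes. In WT replicates 1, 3 and 4, Gm6768 stood at 331, 418 and 442 normalized counts. It was listed at 0, 0 and 4.61 in Dock3 KO replicates 1, 2 and 3. Every knockout value was far under the WT range, and the Dock3 KO mean was 0.387% of the WT mean of 397 ± 58.5 (SD, n = 3). Ncoa4 (ENSMUSG00000056234, chr14:32159865-32179855, plus strand) stood at 1256, 1068 and 1120 in WT muscles and 1460, 1648 and 1176 in Dock3 KO. Its groups overlapped, since Dock3 KO replicate 3 lay below WT replicate 1, and the means were 1148 ± 97.4 and 1428 ± 238 (SD, n = 3 each), a ratio of 1.24. The sum of the pair was 1587, 1486 and 1562 in WT and 1460, 1648 and 1180.5 in Dock3 KO. These sums also overlapped, at 1545 ± 52.6 and 1430 ± 235 (SD, n = 3 each), a ratio of 0.925. The mean rise in Ncoa4, 280 normalized counts, was 70.8% of the mean loss of 395 in Gm6768, and this share was 43.1% without Dock3 KO replicate 2 and 102% without replicate 3. Dock3 KO replicate 3, the lowest of the 6 sums, moved this ratio most, which was 1.01 without that library and 0.764 with only that library kept.

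In the Psmb5 pair the retrocopy was again near 0 in Dock3 KO muscles, the parent was higher there, and the sums overlapped. Gm3375 stood at 234, 309 and 285 normalized counts in WT, against 0, 0 and 1.56 in Dock3 KO. Its Dock3 KO mean was 0.189% of the WT mean of 276.01 ± 38.0 (SD, n = 3), and again only replicate 3 of the Dock3 KO muscles was above 0. Psmb5 (ENSMUSG00000022193, chr14:54614119-54618022, minus strand) stood at 883, 1039 and 956 in WT muscles and 1453, 1214 and 1193 in Dock3 KO. All 3 Dock3 KO values exceeded the WT values, with means of 959 ± 77.9 and 1287 ± 144 (SD, n = 3 each) and a ratio of 1.34. Summed, the pair stood at 1118, 1348 and 1240.4 in WT muscles and 1453, 1214 and 1195 in Dock3 KO. The groups overlapped and the means, 1235 ± 115 and 1287 ± 144 (SD, n = 3 each), had a ratio of 1.04. The parent gained 327 normalized counts in the mean where the retrocopy lost 275, or 119%, a share that ran from 88.8% (without Dock3 KO replicate 1) to 142% (without WT replicate 3). Rescaled to the same total per sample, the ratio of the sums was 0.859.

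The Cyb5r4 pair showed the same layout. Gm11868 reached 146, 168 and 200.2 normalized counts in the WT muscles, against 0, 0 and 1.55. The Dock3 KO mean was 0.301% of the WT mean of 171 ± 27.4 (SD, n = 3). Cyb5r4 (ENSMUSG00000032872, chr9:87022014-87077774, plus strand) stood at 456, 666 and 626 in WT muscles and 732, 729 and 853 in Dock3 KO. WT replicate 1 was the lowest for the parent and for the retrocopy, and no Dock3 KO value of Cyb5r4 fell into the WT range, with means of 583 ± 112 and 771 ± 70.8 (SD, n = 3 each) and a ratio of 1.32. The sum of the pair was 602, 834 and 826 in WT and 732, 729 and 854 in Dock3 KO. It overlapped between genotypes at 754 ± 132 and 772 ± 71.7 (SD, n = 3 each), a ratio of 1.02. The parent gained 188 normalized counts in the mean and the retrocopy lost 171, so the gain was 110.2% of the loss, and 68.1% without WT replicate 1. The ratio of the sums was 0.929 without that library, 0.860 when rescaled to the same total per sample and 0.752 per kilobase of longest transcript.

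In the Tdg pair the retrocopy was near 0 in Dock3 KO muscles, and the parent and the sum of the pair were both higher there than in any WT muscle. Gm9855 stood at 104, 102 and 107 normalized counts in WT muscles and 2.75, 3.02 and 0 in Dock3 KO. Here replicates 1 and 2 of the Dock3 KO muscles were above 0 and replicate 3 was not, the reverse of the other 3 retrocopies. The values above 0 were close to the limit described below, so nothing is read from this reversal. The Dock3 KO mean of Gm9855 was 1.84% of the WT mean of 104 ± 2.90 (SD, n = 3). Tdg (ENSMUSG00000034674, chr10:82629828-82650799, plus strand) stood at 186, 215 and 175 in WT muscles and 413, 356 and 436 in Dock3 KO. The means were 192 ± 20.7 and 402 ± 41.1 (SD, n = 3 each), a ratio of 2.09 with no overlap. The sum of the pair, 289.9, 317 and 283 in WT and 416, 359 and 436 in Dock3 KO, did not overlap either. Its means were 297 ± 18.1 and 404 ± 39.8 (SD, n = 3 each), a ratio of 1.36, and the parent gained 205% of what the retrocopy lost, or 189.6% to 226% with any 1 sample left out. Per kilobase of longest transcript the ratio of the sums turned to 0.818.

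The values of the retrocopies in Dock3 KO muscles were close to the limit of what a library could show. In units of the most frequent low value of their library, Gm3375 and Gm11868 in replicate 3 came to 2.03 and 2.01, and Gm9855 in replicates 1 and 2 to 1.97 and 1.98. Gm6768 in replicate 3 came to 5.98. In 7 of the 12 retrocopy values of Dock3 KO muscles the gene was listed at 0. These are estimates from the low values, not read counts, so no counting interval was made, and presence below that level could not be seen.

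**Figure D2:**
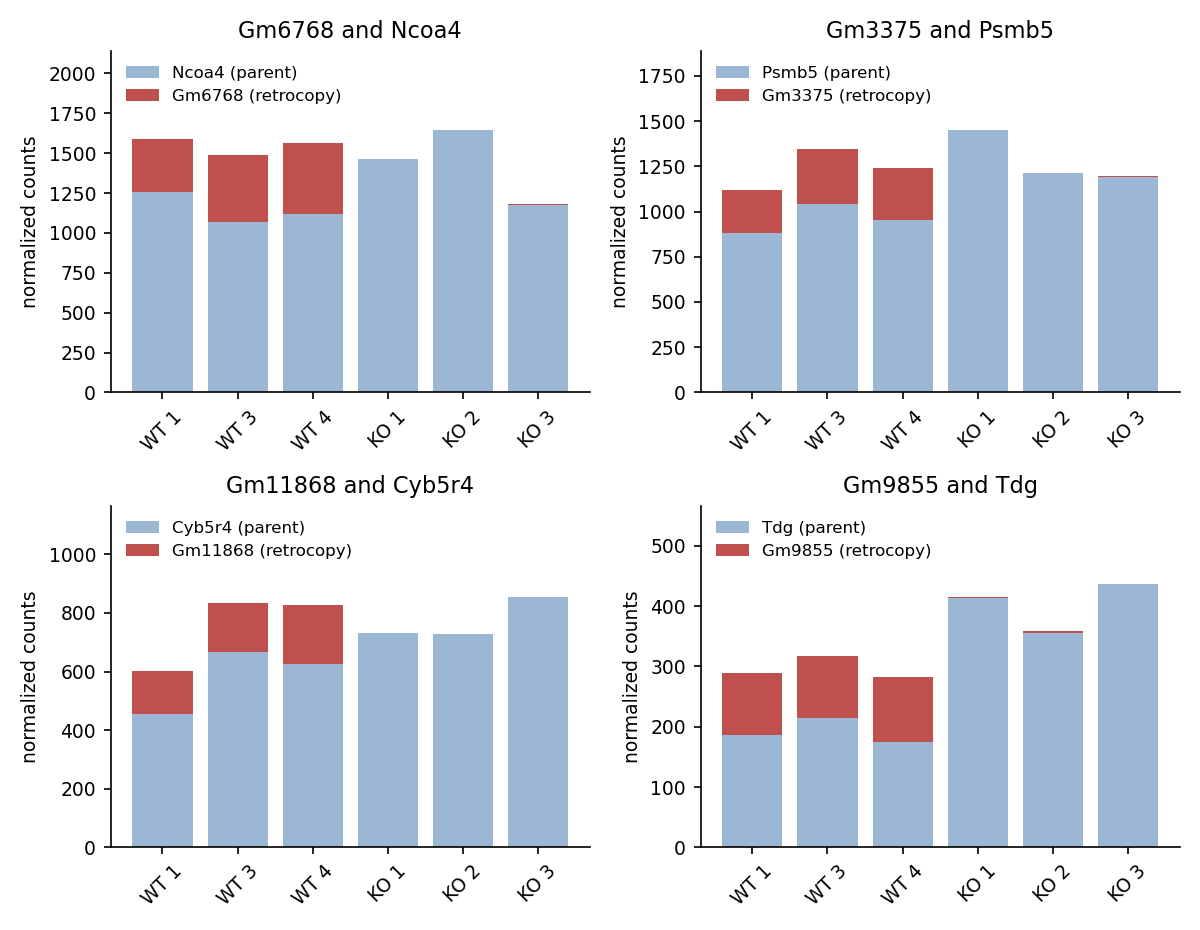
Normalized counts of each pair in the 6 samples, with the parent in blue and its retrocopy in red stacked on it. The red part is visible in all WT bars and almost absent in all Dock3 KO bars, and the height of the whole bar overlaps between genotypes in 3 pairs and is greater in all Dock3 KO samples for the Tdg pair.

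As a share of the pair, the retrocopy made up between 20.2% and 38.0% of the normalized counts in WT muscles and at most 0.840% in Dock3 KO muscles. The WT share of Gm6768 was 20.8%, 28.1% and 28.3% in replicates 1, 3 and 4. That of Gm3375 was 20.97%, 22.9% and 22.97%, and that of Gm11868 24.2%, 20.2% and 24.2%. The mean WT shares of these 3 pairs, 25.8 ± 4.26%, 22.3 ± 1.14% and 22.9 ± 2.36% (SD, n = 3 each), lay within a few points of one another and their sample ranges overlapped. Gm9855 held a larger share, 35.7%, 32.1% and 38.0%, with a mean of 35.3 ± 2.98% (SD, n = 3), and each of its WT values exceeded those of the other pairs. The mean shares in Dock3 KO were 0.130%, 0.0436%, 0.0604% and 0.501% for Gm6768, Gm3375, Gm11868 and Gm9855. A share is taken within a sample, so it does not depend on how the samples were scaled.

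**Figure D3:**
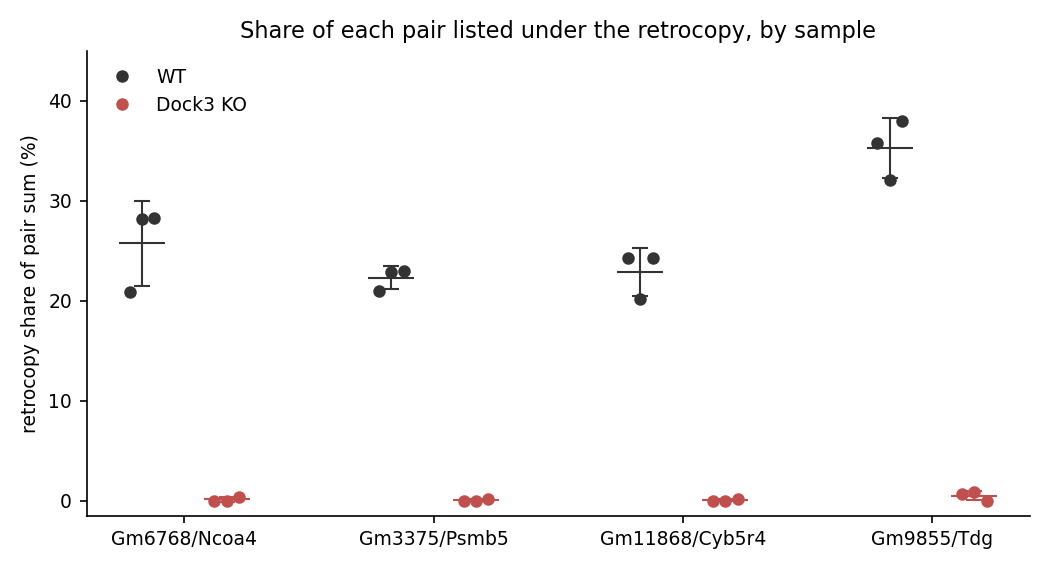
Retrocopy share of the pair sum in percent, by pair, for the WT (black) and Dock3 KO (red) samples. Points are samples, horizontal lines group means and bars 1 SD with n = 3, and WT points lie between 20.2% and 38.0% while no Dock3 KO point exceeds 0.840%.

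Levels can be compared between genes only per length, here per kilobase of the longest annotated transcript. On that scale the WT means of the retrocopies were 347 for Gm3375, 211 for Gm6768, 116 for Gm11868 and 87.3 for Gm9855 normalized counts per kilobase. The parents ran in the same order, pair by pair, with Psmb5 at 1067, Ncoa4 at 243, Cyb5r4 at 152 and Tdg at 54.9. The ranges of the 3 WT samples did not overlap between neighbours in either order. Per length, Gm9855 was thus listed above its parent, and its share of the pair was 61.5 ± 3.12% (SD, n = 3), against 46.5%, 24.5% and 43.4% for Gm6768, Gm3375 and Gm11868. The longest transcripts of Ncoa4 and Cyb5r4 retain an intron, which lowers their level per kilobase.

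Counted over the pairs, all 8 genes passed the filter on low values. The retrocopies passed only through their WT values, with Dock3 KO means of 1.54 (Gm6768), 0.521 (Gm3375), 0.516 (Gm11868) and 1.92 (Gm9855). All 4 retrocopies and 1 of the 4 parents, Tdg, were among the genes called. Over all genes tested, 0.586% were called lower and 0.443% higher, and nothing is read from the comparison, because this contrast chose the pairs. The 4 retrocopies were among the called genes in 15 of 15 alternatives, which use the same contrast, so nothing is read from this either. Tdg was among them in 9. Its place was lost by rescaling to the same total, without a variance trend and with the replicate block. It was also lost without WT replicate 1, WT replicate 4 or Dock3 KO replicate 3. The whole Dock3 KO group lay below the WT group for 4 of 4 retrocopies and for 8.65% of all genes tested. It lay wholly above for Psmb5, Cyb5r4 and Tdg, and for 7.6% of all genes tested. The log2 differences were -7.80, -7.65, -6.97 and -5.41 for Gm6768, Gm3375, Gm11868 and Gm9855 and 0.30, 0.42, 0.42 and 1.06 for Ncoa4, Psmb5, Cyb5r4 and Tdg, where the median of all genes was -0.01. No sign changed in 15 alternatives, which use the contrast that chose the pairs, although the log2 difference of Ncoa4 came down to 0.03 in 1 of them. In bulk tissue, fewer cells that carry a transcript and less transcript per cell cannot be told apart. The assignment of shared reads and the strain of the animals, neither of which is given, were not tested as sources of these values.

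The Tdg copies that the rule had not taken in were examined next, since they were found by sequence alone. Tdg-ps (ENSMUSG00000047347) is a processed pseudogene of 2968 bases that carries untranslated sequence as well as the coding part. It stood at 62.7, 38.4 and 45.5 normalized counts in WT muscles and 0, 1.49 and 0 in Dock3 KO. It fell, with a log2 difference of -5.17, a standard error of 0.683 and a 95% interval from -6.70 to -3.65 (limma adjusted p 0.00460, lower in 3 of 3 Dock3 KO samples). The adjusted p ran from 0.000984 to 0.0486 over the 14 alternatives in which limma tested it. Tdg-ps passed the filter on low values only through its WT values (WT mean 48.9, Dock3 KO mean 0.496). No support for the Gm9855 values is drawn from its call. Gm5597 and AC122846.1 were listed at 0 in all 6 samples. The copies above 0 differed from Tdg at 9 (Gm9855) and 14 (Tdg-ps) of 1193 coding positions, and the copy listed at 0, Gm5597, at 8. Tdg-ps shares 69.2% of its words of 31 bases with Tdg, so its value is uncertain in the same way.

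With its 4 annotated copies added, the Tdg family summed to 353, 356 and 328 normalized counts in WT and to 416, 361 and 436 in Dock3 KO. The groups still did not overlap, at 345 ± 15.0 and 404 ± 39.0 (SD, n = 3 each), but the ratio came down from 1.36 for the pair to 1.17. Replicate 2 of the Dock3 KO muscles, at 361, was close to the highest WT value of 356. For Psmb5 the search found 1 other copy, Psmb5-ps, at 91.7% identity and listed at 0 except for 1.52 in Dock3 KO replicate 2. For Ncoa4 it found no other copy, but the query with the longest transcript did not return Gm6768 either. Only the query with the coding sequence, chosen after seeing the data, returned Gm6768. For Cyb5r4 the longest transcript, which retains an intron, matched 53 other genes, 39 of them with a mean of 10 or more and 0 of them called (limma). None of them was found with the coding sequence, an alternative chosen after seeing the data. These matches are therefore not read as copies of Cyb5r4.

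**Figure D4:**
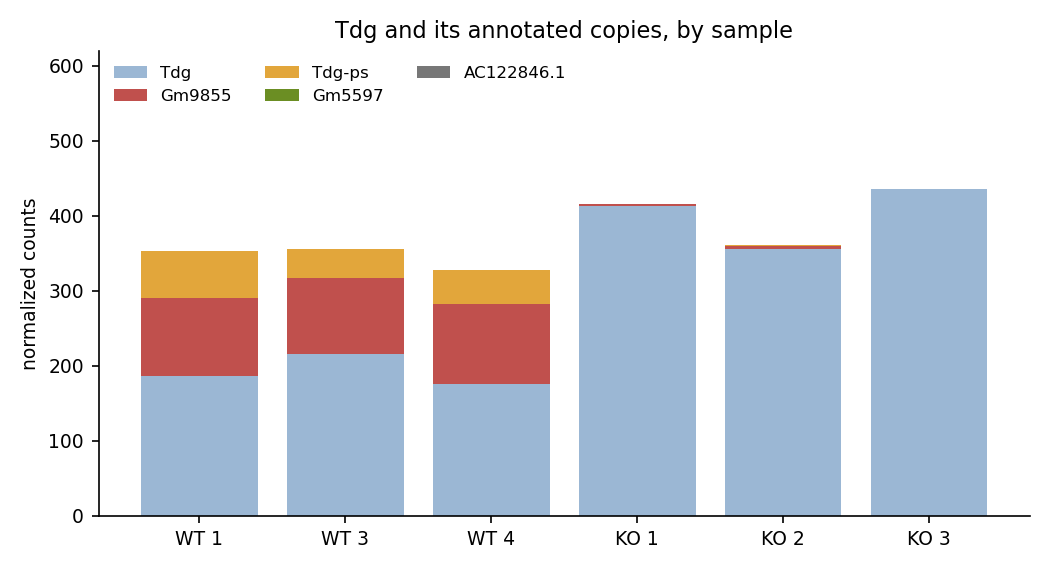
Normalized counts of Tdg and its 4 annotated copies in each sample, stacked. Gm9855 (red) and Tdg-ps (orange) stand on Tdg (blue) in the WT samples, the other 2 copies are at 0 throughout, and the full height is 328 to 356 in WT and 361 to 436 in Dock3 KO.

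Genes around the members, chosen by position alone, were examined in the same fit. Within 100 kb of the retrocopies the table lists 26 other genes, 19 of them at 0 in all samples, and 1 was high enough to be tested. That gene, Itgb8, an integrin subunit gene 22176 bases from Gm6768, stood at 80.6, 80.1 and 63.6 normalized counts in WT muscles and 67.7, 52.2 and 76.1 in Dock3 KO. Its groups overlapped and it was not called (log2 difference -0.20, limma adjusted p 0.870). No gene within that distance of Gm3375, Gm11868 or Gm9855 exceeded 9.02 in any sample. Gm11868 lies within Gm11867 on the opposite strand, which was listed at no more than 1.51. The nearest tested genes of these 3 retrocopies were Myadm, 107192 bases away, Mmp16 and Cpne3, 725057 and 673575 bases away, and Sesn1 and Foxo3, 145689 and 126535 bases away. None was called, and their log2 differences lay between -0.07 (Mmp16) and 0.29 (Sesn1, limma adjusted p 0.607).

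Around the parents, 17 of 35 neighbouring genes were tested and 1 was called, 1190007I07Rik (ENSMUSG00000063320, chr10:82619851-82623228, minus strand), a protein-coding gene 6600 bases before Tdg on the other strand. It stood at 76.2, 90.7 and 77.3 normalized counts in WT muscles and 319, 214 and 298 in Dock3 KO. The groups were far apart, with means of 81.4 ± 8.07 and 277 ± 55.8 (SD, n = 3 each), a ratio of 3.41. It rose by 1.74 on the log2 scale (standard error 0.215, 95% interval 1.26 to 2.22, limma adjusted p 0.00304), and was higher in 3 of 3 samples. It passed in 15 of 15 alternatives, at limma adjusted p-values from 0.000496 to 0.0270. Glt8d2, which overlaps the end of Tdg on the other strand, was not called (log2 difference -0.01, limma adjusted p 0.997), nor was Hcfc2 beyond it (0.09, 0.914). Timm23, a mitochondrial import gene 307 bases after Ncoa4, and Oxnad1 before it were not called, at log2 differences of 0.06 and 0.22. Psmb11, the thymic proteasome subunit 3411 bases from Psmb5, and 4931414P19Rik on its other side stood at 1.01 and -0.61 (limma adjusted p 0.609 and 0.722). Mir686, within Psmb5, was listed at 0. No gene within 100 kb of Cyb5r4 was tested. The nearest tested genes beyond it, Snap91 and Cep162, lie 141360 and 111803 bases away and were not called, at 0.38 and 0.19. In all, 1 of the 18 tested neighbours (limma) was called and 4 had an unadjusted p under 0.05, against 1.03% and 10.5% of all genes, with a median log2 difference of -0.01.

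The processes in which the parents act were described with 4 gene lists that leave out the 8 members. The iron list held 21 genes of ferritin turnover and iron handling. All were tested, 12 had a log2 difference above 0, the median was 0.03 and 0 were called (limma), with 3 at an unadjusted p under 0.05. Slc40a1, the iron exporter ferroportin, stood at 536, 381 and 491 normalized counts in WT muscles and 648, 668 and 659 in Dock3 KO (log2 difference 0.50, limma adjusted p 0.254). Heph, a copper ferroxidase, stood at 50.7, 36.2 and 19.6 in WT muscles and 8.43, 13.8 and 13.6 in Dock3 KO (log2 difference -1.43, limma adjusted p 0.292). Neither overlapped between genotypes and neither passed. Pcbp2, an iron chaperone and RNA-binding protein, had a log2 difference of 0.44 (limma adjusted p 0.397). The ferritin chains, which NCOA4 delivers to the lysosome and which were named after their values were seen, had log2 differences of 0.09 (Fth1) and -0.27 (Ftl1).

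None of the 21 listed genes for other 20S proteasome subunits and assembly chaperones was called (limma), and 0 had an unadjusted p under 0.05. Of these, 7 had a log2 difference above 0 and the median was -0.12, where Psmb5 stood at 0.42. The smallest p-values belonged to the immunoproteasome subunits Psmb9 (log2 difference -0.61, limma adjusted p 0.700) and Psmb10 (-0.29, 0.716) and the assembly chaperone Psmg2 (-0.23, 0.744). Psmb6 and Psmb7, which encode the other constitutive catalytic subunits and were named after their values were seen, stood at -0.04 and -0.15. The highest log2 difference of the list, 0.34, was below that of Psmb5. The list leaves out the thymic 20S subunit gene Psmb11, which lies near Psmb5. Psmb11 had a mean of 16.5 normalized counts and a higher log2 difference than Psmb5, 1.01 (limma adjusted p 0.609). The difference between Psmb5 and these genes was not tested.

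For Cyb5r4, 15 of 17 genes of cytochrome b5 reductases and b5-dependent enzymes were tested. Of these, 0 were called (limma), 2 had an unadjusted p under 0.05 and 2 had a log2 difference above 0, with a median of -0.30. Scd2, a stearoyl-CoA desaturase, stood at 1256, 2193 and 1380 normalized counts in WT muscles and 1287, 752 and 853 in Dock3 KO (log2 difference -0.73, limma adjusted p 0.292). Por, the electron donor of microsomal cytochromes P450, was at -0.51 (limma adjusted p 0.352), and Sc5d, a sterol desaturase, at -0.35 (0.4998). The genotypes overlapped for Scd2 and Sc5d and not for Por, and the parent itself, at 0.42, lay on the other side of 0 from the median.

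For Tdg, 25 of 26 genes of base excision repair and active DNA demethylation were tested, with a median log2 difference of -0.21 and 10 above 0. Gadd45a, a stress-induced gene linked to DNA demethylation, was the 1 gene called. It stood at 389, 561 and 779 normalized counts in WT muscles and 220, 260 and 204 in Dock3 KO, with no overlap, and fell by 1.28 on the log2 scale (standard error 0.240, limma adjusted p 0.0381), lower in 3 of 3 samples. That call passed in 8 of 15 alternatives. It was lost without WT replicate 3 (limma adjusted p 0.143) or 4 (0.117), without Dock3 KO replicate 1 (0.0979), 2 (0.105) or 3 (0.152), without a variance trend (0.191) and with the replicate block (0.0882). Tet3, a dioxygenase that makes the oxidised bases TDG removes, had a log2 difference of -0.55 (limma adjusted p 0.297). Ung, the uracil glycosylase, was at -0.58 (limma adjusted p 0.491). Both were lower in all 3 Dock3 KO muscles than in any WT muscle and neither passed. Over the 4 lists together, 1 of 82 tested genes (limma) was called and 7 had an unadjusted p under 0.05, against 1.03% and 10.5% of all genes.

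**Figure D5:**
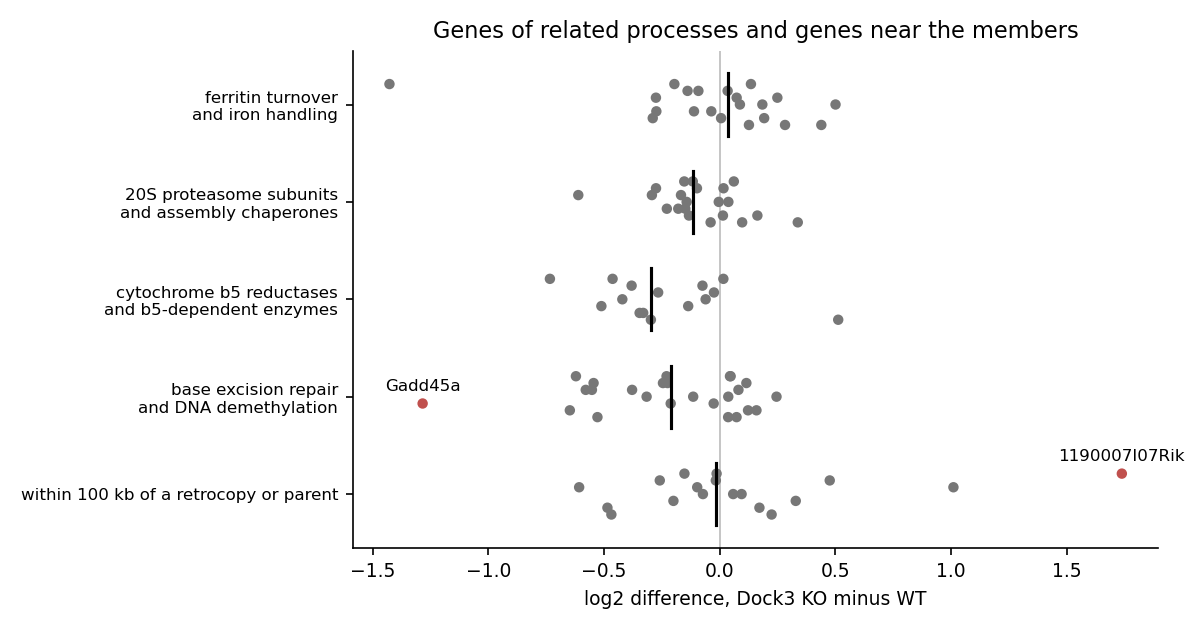
Log2 differences, Dock3 KO minus WT, for the tested genes of 4 lists named for the parents' processes and for tested genes within 100 kb of a member. Points are genes, black bars medians and red points genes past an adjusted p of 0.05 (limma), which are Gadd45a at -1.28 and 1190007I07Rik at 1.74.

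Genes with a profile over the 6 samples like that of a retrocopy were sought by the root mean square distance between mean-centred log2 values. For Gm6768 the nearest were Morf4l1-ps1 (distance 0.394), Hal (0.675) and Gm9825 (0.853). For Gm3375 they were Hal (0.333), Gm9825 (0.504) and Rprl3 (0.527), and for Gm11868 Hal (0.451), Rpl15-ps2 (0.4996) and Gm9825 (0.655). Gm9855 stood nearest to Tdg-ps (0.605), Eif3s6-ps2 (0.617) and Gm18234 (0.697). Tdg-ps is another copy of the same parent, but Eif3s6-ps2 was almost as near. The profiles carry the WT to Dock3 KO contrast that chose the retrocopies, so no relation between genes is read from likeness. Apart from Hal, which encodes histidine ammonia-lyase, and Rprl3, annotated as a ribozyme, all of these were processed pseudogenes. Hal reached 375, 721 and 566 normalized counts in WT muscles and 2.05, 1.11 and 2.95 in Dock3 KO, and it is protein-coding.

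The pattern of the 4 retrocopies, high in every WT muscle and near 0 in every Dock3 KO muscle, was looked for among all genes. At least 100 normalized counts in every WT sample and at most 5 in every Dock3 KO sample were found for 11 genes. Of these, 9 were processed pseudogenes, the 4 retrocopies included, and the other 2 were Hal and Rprl3. Those 9 were 2.69% of the 335 processed pseudogenes tested. Over all of them the median log2 difference was -0.09, with 25 called lower and 2 called higher (limma, adjusted p under 0.05). The Dock3 KO group lay wholly below the WT group for 58. Both the 25 and the 58 include the 4 retrocopies, which this contrast chose. Among all genes tested, 0.586% were called lower, 0.443% were called higher and 8.65% lay wholly below. The bounds of 100 and 5 were set with the values of the retrocopies known.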

How the data were processed

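Total RNA of 6 adult tibialis anterior muscles, freed of ribosomal RNA, went into strand-specific libraries that were sequenced from both ends, per the labels' protocols. The authors deposited 1 table of normalized counts, treated here as a signal per gene because its values are neither whole nor of a fixed sum. Per the submitters' processing notes, Trim Galore 0.4.5, Salmon 0.12.0, DESeq2 1.22.1 and R 3.5.3 were used with the builds mm10 and GRCm38, and their roles are not stated. The scaling method, the annotation, whether strand was used in counting, and the handling of reads that fit several genes are not given in the sources used here. Depth is therefore known only from the low values, precision rests on 3 replicates per group, and no counting interval is given.

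All 54393 identifiers were matched to GENCODE M21, whose transcripts gave the sequences. Values were tested as log2(normalized count + 1) with limma 3.58.1 in R 4.3.3 (eBayes with trend, no covariates, Benjamini-Hochberg adjustment over 16031 genes with a mean of at least 10). The fit was tried on simulated data with normal noise and changes larger than that of any parent or list gene. How it performs on smaller changes was not tested. Copies were sought with blastn 2.17.0 (at least 90% identity over 200 bases), and pairs were aligned with Biopython 1.88. Other steps used Python 3.11.15 and pandas 2.3.3, and plots matplotlib 3.10.9.

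The members and lists were chosen with earlier results of these data known. Genes were named by a rule: the members, Dock3, called genes and the 3 smallest p-values of each list, overlapping, nearest tested and called neighbours, other copies with a mean of at least 10, and 3 genes per retrocopy by likeness. The 39 matches of the longest Cyb5r4 transcript with a mean of at least 10 were not named. Of the genes outside the rule, the ferritin chains, Psmb6 and Psmb7 are marked where they appear. Cell type markers, Gm42418, Lars2, Gm5597, AC122846.1 and Psmb5-ps were also named outside it. Replicate numbers come from the titles. Same-numbered muscles (1 and 3) had correlations of 0.06 and 0.01 between their deviations from the group means, and no label says that a number marks a shared animal or day, so they were not paired. Alternatives were pseudocounts of 0.1 and 10, no filter and a mean of at least 50, rescaling to the same total, quantile normalization, eBayes without trend or robust, a replicate block, and leaving out each sample.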

Additional observations from a re-analysis of the deposited data

How the results depend on the processing

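Of all genes tested, 165 passed with limma, and 104 passed without a variance trend (94 of them among the 165), 98 to 159 with 1 sample left out (98 without WT replicate 4, 100 without Dock3 KO replicate 2), and 127 with the replicate block (100 among the 165). The muscles share only a number, and the replicate block ended the calls of Gadd45a and Col3a1 and not those of Dock3, Tdg-ps, 1190007I07Rik or Col1a1. Rescaling to the same total moved the median of all genes by -0.27 on the log2 scale, and 23.2% of its 177 calls were higher in Dock3 KO, against 43.0%. The count of list genes past the threshold, 1, became 0 without a trend, 0 with the replicate block and 0 to 1 with a sample left out, while 1 neighbour, 1190007I07Rik, passed throughout.

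The ratio of the pair sums depended on scale. Rescaled to the same total, it was 0.758 for Gm6768/Ncoa4, 0.859 for Gm3375/Psmb5, 0.860 for Gm11868/Cyb5r4 and 1.14 for Gm9855/Tdg. Per kilobase it was 0.667 for Gm6768/Ncoa4, 1.01 for Gm3375/Psmb5, 0.752 for Gm11868/Cyb5r4 and 0.818 for Gm9855/Tdg, so the last fell below 1. With a sample left out it ran from 0.855 to 1.01, 0.975 to 1.09, 0.929 to 1.08 and 1.31 to 1.44 in the order Ncoa4, Psmb5, Cyb5r4 and Tdg. Alternatives chosen after seeing the data gave 0.764 for Gm6768/Ncoa4 with only Dock3 KO replicate 3 and 1.17 for Tdg with all its copies. The retrocopy share kept its direction in every alternative run. All of them use the contrast that chose the pairs, so nothing is read from this. The share differed by -25.6, -22.2, -22.8 and -34.8 percentage points in the same order, and per kilobase by -46.1, -24.4, -43.2 and -60.01.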
